A study of Homo sapiens with 4 samples.

Results

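The sequences described here are the synthetic RNAs that represent the JUN transcript. They were found by position, as all oligonucleotides whose selected adenosine lies on the minus strand of chromosome 1 in a window around the JUN gene, whatever their design class. This gave 9 of 11999 oligonucleotides, which are 3 distinct sequences of 141 listed nucleotides with 3 tag copies each, out of 3949 distinct sequences in the pool. The study incubated a pool of RNAs made in vitro with the recombinant METTL3–METTL14 writer complex (2 methylated libraries) or without it (2 unmethylated libraries, named Control in the count table). All 4 were then prepared by miCLIP2 with an m6A antibody, where each count is a reverse transcription stop that is read as a crosslink. The RNA was naked and outside any cell. HEK293T cells, a human embryonic kidney line, served only to choose the sequences, and all 3 JUN sequences belong to the m6A class, chosen around an adenosine that miCLIP2 had found methylated in those cells.

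JUN encodes c-Jun, a basic leucine zipper subunit of the AP-1 transcription factor. It is an immediate-early gene without introns, and its mRNA is short-lived. In the writer complex METTL3 is the catalytic subunit and METTL14 helps to bind the RNA. The complex acts on adenosines in a DRACN context (D stands for any base but C, R for a purine, N for any base). DRACH, where H excludes G, is the consensus of m6A in cells.

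Positions are counted from 1 at the 5′ end of the listed sequence, and the adenosine for which a sequence was selected is at position 51. The sequence nearest the transcript start, called upstream here, has its selected adenosine at 58783190, 857 nt from the RefSeq start of JUN (58784047 on the minus strand). The middle sequence has it at 58781941, 2106 nt from the start, and the downstream sequence at 58781797, 2250 nt from the start. All 3 lie in the RefSeq gene JUN, which spans 58780791 to 58784047 in GRCh38.p14. Which parts are coding was not resolved with the tables used here. The sequences do not overlap. The middle and the downstream sequence are neighbours with 3 nt between them, so no adenosine was measured in more than 1 sequence.

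The windows below show, 5′ to 3′ as DNA from the deposited sequences and with GRCh38 coordinates, the selected motif of each sequence and a pair of further motifs of the middle one. They are printed because the middle sequence holds the same 5-mer, GGACU, at positions 51 and 98, and these gave different values. The downstream sequence holds it again, but its adenosine there had no count in any library. Capitals mark the DRACN 5-mer.
Upstream, adenosine 51 (chr1:58783180-58783200, minus strand): tcttagagAAACTttccctgt
Middle, adenosine 25 (chr1:58781957-58781977, minus strand): gtgtccgaGAACTaaagccaa
Middle, adenosine 51 (chr1:58781931-58781951, minus strand): tccaagttGGACTgggttgcg
Middle, adenosine 98 (chr1:58781884-58781904, minus strand): agtgggaaGGACTtggcgcgc
Downstream, adenosine 51 (chr1:58781787-58781807, minus strand): ggaacgttGGACTtttcgtta

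The 4 libraries held between 10483825 and 13265092 counts. The JUN sequences were covered very unevenly. The middle sequence had 10092 and 9325 counts without and 13956 and 14210 counts with the enzyme, more than 94.1% of all sequences. The upstream sequence had 977, 1129, 1102 and 1288 counts and lay near the middle of the pool (more than 56% of sequences). The downstream sequence had only 204, 141, 186 and 208 counts. Levels are given as CPM, the counts scaled to 1000000 of the library with tag copies summed, unless a share of the sequence is named.

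The 3 sequences hold 17 DRACN adenosines, 12 of them DRACH. Only 4 reached the count minimum of 10 counts in at least 2 libraries, all in the middle sequence, and of these 1 was higher after methylation and 0 lower by edgeR's quasi-likelihood test over all 142938 sites. The background is large here: of all DRACN adenosines tested, 39.3% were called higher and 0.28% lower. The count minimum can be reached through the methylated libraries alone, which favours adenosines that rise. Without a minimum, 15.5% of 11210 DRACN adenosines were called higher. The share called in JUN is therefore no result about JUN, and the values of the single adenosines carry the description.

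The adenosine that rose was the GGACU at position 98 of the middle sequence (58781894), which was not the one the sequence had been selected for. It had 14 and 23 counts without and 319 and 318 counts with the enzyme, or 1.34 and 1.91 CPM against 24.3 and 24 CPM. Both methylated libraries lay far above both unmethylated ones. The mean went from 1.62 ± 0.408 to 24.2 ± 0.254 CPM (SD, n = 2 each), a log2 fold change of 3.84 ± 0.35 SE, or 14.4-fold (edgeR adjusted p = 8.93e-08). The exact permutation p over the 4 libraries is 0.333, the smallest that 2 against 2 can give. Within the sequence, the adenosine took 1.39 and 2.47 of 1000 counts before and 22.9 and 22.4 after methylation. Set against the total of the sequence, the log2 fold change was 3.56 ± 0.31 SE (edgeR adjusted p = 8.31e-09), where 34.2% of DRACN and 49.6% of GGACU adenosines were called higher and 0.0234% of DRACN adenosines lower. Among the 500 GGACU adenosines tested, whose median log2 fold change was 2.00 (quartiles 0.95 and 3.34) and of which 58.2% were called higher, 81.4% had a smaller change.

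The selected GGACU of the same RNA, at position 51, showed no such difference. It had 36 and 26 counts without and 21 and 46 counts with the enzyme, so that the groups overlap. Its level was 2.8 ± 0.9 CPM before and 2.53 ± 1.32 CPM after methylation (SD, n = 2 each). The log2 fold change was −0.17 ± 0.42 SE (edgeR adjusted p = 0.893), with a 95% interval of −0.99 to 0.66 (1.96 SE either way). The median of all GGACU adenosines lies outside this interval. Of the 217 selected GGACU adenosines tested in the m6A class, 55.3% were called higher, and 10 (4.61%) had a lower log2 fold change than this one. The class holds 610 selected GGACU adenosines, and the count minimum favours those that rise. The median and the rank therefore do not show how unusual adenosine 51 is among all GGACU adenosines. At adenosine 51 the sign is not settled: the log2 fold change was 0.16 without unmethylated replicate 1 and 0.25 without methylated replicate 1.

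The remaining tested DRACN adenosines of the middle sequence also did not pass the threshold. The GAACU at position 25 (58781967) had 6.39 and 4.16 CPM without and 5.87 and 9.72 CPM with the enzyme, with a log2 fold change of 0.54 ± 0.34 SE (edgeR adjusted p = 0.424). Its groups overlap. Of the 170 GAACU adenosines tested, 31.8% were called higher, and 54 (31.8%) had a smaller change than this one. The UGACG at position 67 (58781925), a DRACN outside the DRACH consensus, had 6.01 and 3.57 CPM and then 2.21 and 4.15 CPM. Its log2 fold change was −0.61 ± 0.38 SE (edgeR adjusted p = 0.423), and 4 of 75 UGACG adenosines, of which 22.7% were called higher, lay lower. In the unmethylated libraries adenosine 98 had the lowest level of the 4, and in the methylated libraries the highest.

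The difference between the 2 GGACU adenosines of this RNA was tested directly, on the log2 ratio of their counts in each library. The ratio of adenosine 98 to adenosine 51 was −1.33 and −0.17 before and 3.89 and 2.78 after methylation. The shift was 3.85 ± 0.61 SE on the log2 scale (limma over 4530 pairs of DRACN adenosines of one sequence, adjusted p = 0.00283), with a 95% interval of 2.66 to 5.04. Without unmethylated replicate 1 it was 3.32 and missed the threshold (limma adjusted p = 0.0669). Of the 6 pairs among the 4 adenosines, 4 differed in response, against 19% of all pairs. The called pairs share adenosines, most of them adenosine 98, so this count is no result about JUN. Adenosine 98 exceeded adenosine 25 by 3.18 ± 0.53 SE (limma adjusted p = 0.00368) and adenosine 67 by 4.28 ± 0.56 SE (0.00117, also limma adjusted). The call against adenosine 25 ended without unmethylated replicate 1 (0.0808) or unmethylated replicate 2 (0.0545), while that against adenosine 67 held without each library. Adenosine 67 against adenosine 25 (−1.14 ± 0.35 SE, limma adjusted p = 0.0496) missed the threshold when any 1 of the 4 libraries was left out, with adjusted p from 0.107 to 0.281.

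Both GGACU motifs share the 5-mer but little of what surrounds it. Of the 16 flanking bases in the windows, 3 are equal. In the partition function of the listed sequence computed with ViennaRNA, adenosine 98 was unpaired with a probability of 0.793 and adenosine 51 with 0.0415. Averaged over the 5-mer the values were 0.473 and 0.154. Adenosine 25 had 0.299 and adenosine 67 had 0.999. The tag and linker of the RNA were not part of this prediction, and whether pairing bears on the response was not tested. In the series, 41 sequences of the m6A class had a tested selected GGACU together with another tested GGACU. In 14 both were called higher, in 8 only the selected one, in 11 only another, and in 8 neither. The middle JUN sequence is among the 11.

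The rise at adenosine 98 came with smaller rises at the neighbouring nucleotides. The G at position 97 went from 4.91 ± 1.41 to 13.5 ± 1.12 CPM (SD, n = 2 each), and its log2 fold change was 1.42 ± 0.32 SE (edgeR adjusted p = 0.00645). The C at position 99 went from 2.01 ± 0.132 to 7.06 ± 2.42 CPM, with a log2 fold change of 1.79 ± 0.38 SE (edgeR adjusted p = 0.0042). The U at position 100 went from 1.51 ± 0.021 to 8 ± 0.227 CPM, with 2.37 ± 0.37 SE (edgeR adjusted p = 1.64e-04). These and adenosine 98 were the 4 positions called higher in the middle sequence, 3.92% of those tested in it, and 0 were lower. Over all sites of the series 3.7% were higher and 2.01% lower. At the G of position 96 the log2 fold change was −0.04 and at the U behind position 100 it was 0.68, and neither passed. Around GGACU adenosines called higher in the whole series, the G just before the adenosine was called higher in 37.9% of tested cases and the G before that in 9.29%. Of the 3 nucleotides behind it, 11.9%, 14.2% and 11.3% were called higher. Around adenosine 51 no tested nucleotide from position 46 to 56 was called, and position 54 was below the count minimum.

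Most counts of the middle sequence lay at other positions, which also had counts without the enzyme. Uridines make up 14.9% of its positions and took 40.6% of the unmethylated and 47.6% of the methylated counts. The U at position 90 alone had 981, 1281, 2534 and 1935 counts (unmethylated before methylated), and its log2 fold change of 0.73 ± 0.26 SE did not pass (edgeR adjusted p = 0.107). A guanosine, at position 81, was also among the high positions, with 1381, 1291, 1142 and 1235 counts. Against the total of the sequence, positions 81 (log2 fold change −0.71, edgeR adjusted p = 0.0397) and 79 (−0.94, adjusted p = 0.0133, also edgeR) were called lower. The same 4 positions around adenosine 98 were called higher there, against backgrounds of 1.8% higher and 0.404% lower. The total of the sequence itself was 1.23-fold higher after methylation, which did not pass (log2 fold change 0.30 ± 0.18 SE, edgeR adjusted p = 0.291).

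The tag copies of the middle sequence differ only in a tag of 15 bases behind the listed sequence, which is shown because the size of the rise at adenosine 98 differed between them.
Copy 1: gggattaacggttgg
Copy 2: gcagacgtctacggg
Copy 3: tagctgagatgctat

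At adenosine 98, copy 1 had 5 and 6 counts without and 222 and 206 counts with the enzyme. Copy 2 had 5 and 9 and then 27 and 33, and copy 3 had 4 and 8 and then 70 and 79. In each copy both methylated libraries exceeded both unmethylated ones. The log2 fold changes were 5.01 ± 0.43, 1.84 ± 0.53 and 3.37 ± 0.47 SE, with edgeR adjusted p-values of 1.08e-07, 0.0419 and 6.65e-05 in a fit with each copy as a row of its own. These were 3 of the 9 DRACN adenosines of single copies that could be tested, where 39.2% of all were called higher. All 3 copies reached the count minimum only through the methylated libraries, so a copy without a rise would not have been tested. The pairs of copies compared below passed the same minimum. The ratios of the pooled CPM were 33.2 (95% counting interval 18.4 to 67), 3.66 (2.02 to 7.09) and 10.6 (5.89 to 21).

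As a share of its own copy, the adenosine spanned 1.06 to 3.62 of 1000 counts before and 4.56 to 38 after methylation, with copy 2 at the low end. Before methylation, adenosine 98 took 1.54 and 2.03 of 1000 counts of copy 1, 1.06 and 2.17 of copy 2, and 1.89 and 3.62 of copy 3. After methylation it took 38 and 37.1 of copy 1 and 31.8 in both libraries of copy 3, but only 4.56 and 5.34 of copy 2. Relative to the total of its copy, the response of copy 2 differed from that of copy 1 by −2.71 ± 0.76 SE on the log2 scale (limma over 3548 pairs of tag copies, adjusted p = 0.0141; 3.92% of all pairs were called). This call ended without unmethylated replicate 1 (0.206), without unmethylated replicate 2 (0.601) and without weights, where the adjusted p was 0.206 and 0 of the 3548 pairs passed (483 at an unadjusted p under 0.05). Copy 3 against copy 2 differed by 1.87 ± 0.76 SE (limma adjusted p = 0.183) and copy 3 against copy 1 by −0.85 ± 0.77 SE (0.722, 95% interval −2.35 to 0.65). With copy 1 left out, the log2 fold change of adenosine 98 in the summed sequence was 2.74 in place of 3.84 (edgeR adjusted p = 6.65e-05).

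The totals of the copies differed in level and in their ratio. Copy 1 went from 6217 unmethylated to 11389 methylated counts, a CPM ratio of 1.56. Copy 2 went from 8877 to 12095 (1.16) and copy 3 from 4323 to 4682 (0.924). These ratios have no test here. At adenosine 25, copy 1 had 1, 4, 15 and 13 counts, copy 2 had 31, 27, 40 and 83, and copy 3 had 35, 19, 22 and 33 (unmethylated before methylated). None of these passed. The log2 fold changes were 2.20 ± 0.80, 0.82 ± 0.40 and −0.24 ± 0.45 SE, with edgeR adjusted p-values of 0.118, 0.282 and 0.849. Copy 1 reached the count minimum there only through the methylated libraries. At adenosine 51, copy 3 held 39 of the 62 unmethylated and 35 of the 67 methylated counts. Across the 141 positions the profiles of the copies resembled each other, with Spearman's rho between 0.76 and 0.84, a description over positions that share a sequence and the same 4 libraries.

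The upstream sequence holds 3 DRACN adenosines, and none of its 31 tested positions was called. The selected AAACU at position 51 had 2 and 6 counts without and 8 and 13 counts with the enzyme, short of the count minimum by 1 library. All methylated counts exceeded the unmethylated ones. The ratio of the pooled CPM was 2.24, with a 95% counting interval of 0.953 to 5.85. The GGACG at position 17 had 2, 2, 3 and 9 counts (ratio 2.56, 0.776 to 10.9) and the other AAACU, 70 nt behind the selected one, had 0, 2, 3 and 8 (ratio 4.69, 1.02 to 43.6). Without a count minimum, where 15.5% of DRACN adenosines were called higher and 0.134% lower, the log2 fold changes were 1.11 ± 0.76, 1.26 ± 1.01 and 2.07 ± 1.21 SE, with edgeR adjusted p-values of 0.819, 0.842 and 0.698. The 78 AAACU adenosines tested in the series had a median log2 fold change of 0.67. Most counts of this sequence came from 1 tag copy, with 1604 unmethylated and 1809 methylated counts, against 304 and 360 and 198 and 221 in the others. The total of the sequence had a log2 fold change of −0.06 ± 0.16 SE (edgeR adjusted p = 0.855).

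The downstream sequence is the richest in motifs, with 10 DRACN adenosines, and the poorest in counts. Its selected GGACU had 0 counts in all 4 libraries, which allows up to 3 counts in each, or 0.226 to 0.286 CPM. Over the 610 selected GGACU adenosines of the m6A class together, the adenosine took 4.37 of 1000 counts before and 13.8 after methylation. At that share the 394 methylated counts of the downstream sequence would hold 5.42, too few for the count minimum. The share is an average over the class, and 88.1% of the counts of this sequence lay at position 85 or later. Whether its selected adenosine responds could not be told. In all, 7 of its 10 DRACN adenosines had no count in any library: beside the selected one these were the GGACG at position 20, the GAACG at 39 and at 44, the UAACA at 62, the UGACC at 68 and the GAACU at 75. The GGACC at position 84 had 0, 0, 1 and 1 counts and the UAACA at position 89 had 1, 0, 3 and 1. The AAACU that lies 87 nt behind the selected adenosine had 1, 0, 4 and 9 (ratio 11.1, 95% counting interval 1.67 to 472). Without a count minimum its log2 fold change was 3.16 ± 1.30 SE (edgeR adjusted p = 0.307; unadjusted 0.0152).

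Counts of the downstream sequence were crowded towards its 3′ end. Positions from 85 on held 88.1% of them, against a median of 55.7% over 3669 sequences with at least 100 counts, and 92.8% of those sequences had a smaller share. The middle and upstream sequences had 33.5% and 40.1%. The downstream sequence carries runs of 6, 5 and 5 guanosines, which lie 63 to 68, 70 to 74 and 76 to 80 nt behind its selected adenosine, and reverse transcription runs through them before it reaches 9 of its 10 motifs. The upstream sequence has 1 run of 6, 21 to 26 nt behind its selected adenosine, and the middle sequence has none of 5 or more. Whether the runs bear on coverage was not tested. Of its tag copies, 1 held 312 unmethylated and 361 methylated counts, another 33 and 32, and the remaining copy 0 and 1. Its total had a log2 fold change of −0.05 ± 0.25 SE (edgeR adjusted p = 0.923).

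None of the 3 JUN sequence totals was called by edgeR, while 10.4% of all 3823 sequences tested were higher and 6.72% lower. The count was also 0 in DESeq2, and at an unadjusted p under 0.05 it was 0 in both tools. Over the 13 DRACN adenosines of JUN that were not tested, 6 had any count, and each of these had more methylated than unmethylated raw counts. The methylated libraries were also deeper, and the DRACN adenosines tested in the series had a median log2 fold change of 1.22. How many untested DRACN adenosines of the series lean this way was not counted, so the direction is no result about JUN.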

How the data were processed

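Reverse transcription stops were counted in 2 unmethylated and 2 methylated libraries. The authors deposited raw counts for each nucleotide of each oligonucleotide, per library. FastQC 0.11.8, STAR 2.7.3a and bedtools 2.27.1 are named in the submitters' processing notes, without their roles. The handling of duplicate reads and the build are not stated in the labels. Where a RefSeq promoter window of GRCh38.p14 covered a selected adenosine, it and 5 bases on each side matched at 83 of 83 loci.

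Counts of the 3 tag copies of a sequence were summed. Sites that reached 10 counts in 2 or more libraries were fitted over the whole table with edgeR 4.0.16 under R 4.3.3 (TMM scaling, quasi-likelihood F test between the groups, two-sided). P-values were adjusted by Benjamini-Hochberg over all sites, and the threshold was 0.05. Fits against sequence totals used these as offsets. SE is the log2 fold change over the square root of F. Ratios between adenosines or tag copies of one sequence were tested with limma 3.58.1 (log2 of counts plus 0.5, weighted by counts), a test added after the data were seen. The planned comparison of overlapping sequences had no pair in JUN. Alternatives were DESeq2 1.42.0, scaling, count minimum, a replicate block, tag copies and libraries left out. The fits were tested on simulated data with independent sites and the same spread at each, so that test does not cover the spread of the real counts. Counting intervals are exact binomial at 95%, and they and the floor of 3 counts cover counting error only. ViennaRNA 2.7.2 gave pairing probabilities. Sequence totals of replicates differed by more than sampling noise (chi-square divided by its degrees of freedom, 44.1 and 38.4). The labels do not describe the replicates as separate reactions, so p-values measure only how these samples vary, and that variation may be technical. Every DRACN adenosine of JUN is described. A planned list of related genes is not reported here. Members and lists were chosen with earlier results of these data known.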

Additional observations from a re-analysis of the deposited data

How the results depend on the processing

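The number of JUN DRACN adenosines called higher was 1 under each of 15 alternatives, also against the sequence total (8 alternatives), and 0 JUN sequence totals were called in 10. With a minimum of 50 counts, adenosine 98 passed through the methylated libraries alone, and adenosine 51 was not tested. With each tag copy apart, the 3 copies of adenosine 98 also passed only that way and are counted as 1. In these settings the filter favoured a call at adenosine 98. At adenosine 98 the log2 fold change ran from 2.74 to 4.38 over 14 alternatives, with adjusted p up to 6.65e-05. Left-out libraries gave 3.59 to 4.17.

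Changes of sign occurred only among values that were not called. Adenosine 51 ran from −0.78 to 0.25 without single libraries and was 0.18 without copy 3 (against the sequence total, −1.08 to 0.02). Adenosine 25 against the total ran from −0.12 to 0.59. The totals of the downstream and the upstream sequence ran from −0.32 to 0.26 and from −0.14 to 0.02. Without weights the shift of adenosine 67 against 25 was −1.16 (adjusted p = 0.145, limma) and that of copy 2 against copy 1 −2.67 (0.206). The comparison of overlapping sequences was not run, since there are none in JUN.

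Replicate numbers name the libraries only. Deviations of same-numbered libraries correlated with −0.0741 over sites and −0.305 over sequence totals. With the replicate number as a block 1 JUN adenosine was called (log2 fold change 3.86 at adenosine 98), and over all sites 5608 were higher in place of 5282. With the numbers crossed, 7748 sites were higher, 1 JUN adenosine among them, and 0 JUN totals.

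The backgrounds moved, while the numbers of JUN adenosines and JUN sequence totals called stayed the same. Calls among the JUN pairs did move: some pairs of adenosines and the pair of tag copies lost their call when single libraries were left out. Over all sites, 5282 were higher and 2873 lower, against 3033 and 1797 with DESeq2, and 3224 to 5699 and 1614 to 3437 without single libraries. Against sequence totals, 2575 were higher and 577 lower, with 1818 to 3059 and 215 to 1275 without single libraries. Called pairs of adenosines fell from 859 to between 156 and 553 without single libraries, and called pairs of tag copies (3.92% of all) to as few as 24.

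Depth limits the rest. The 13 adenosines below the count minimum, among them the selected ones of the upstream and downstream sequences, have no test here beyond the fit without a minimum. With 2 libraries a group and 1 condition of the enzyme, no dose or time of methylation is covered.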
